A study of Homo sapiens with 4 samples.

Results

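The zinc finger cluster on 19q13.12 was taken as all listed Argonaute PAR-CLIP regions on chromosome 19 of hg19 whose start lay between 36.7 and 38.4 Mb, on either strand. It held 1332 of the 211947 regions in the list, of which 836 were on the minus strand and 496 on the plus strand. PAR-CLIP crosslinks RNA that has taken up a photoreactive uridine to the protein under study, so that the bound fragments can be sequenced. The cells were HEK293, a human embryonic kidney line. For the 3 AGO1 libraries the cells stably carried a His/FLAG/HA-tagged protein, received 200 µM 4-thiouridine for 16 h, and the protein was precipitated through FLAG. For the 1 AGO2 library the label names an antibody to AGO2 itself, 100 µM 4-thiouridine for 16 h and no tag, although the design text describes tagged cells for AGO2 too. All cells were crosslinked at 365 nm. The list pools libraries and gives 1 score per region, so AGO1 and AGO2 could not be compared, no value has a replicate, and no test between conditions was possible.

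Zinc finger proteins of the C2H2 type bind DNA through a row of finger modules, each folded around a zinc ion held by cysteines and histidines. Many carry a KRAB domain in front of the fingers, which recruits repressors of transcription, and their genes lie in tandem clusters on chromosome 19. The fingers of such a protein are usually encoded together in its last coding exon, as head-to-tail repeats of 28 codons, or 84 nt. AGO proteins carry microRNAs and bring them to matching sites in RNA. A repeated coding sequence can hold the same site many times.

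The label could not be checked region by region, because the list names no gene and an hg19 annotation and sequence were not used here. The RefSeq table of GRCh38.p14 was used for names and order only. It held all 30 zinc finger genes listed for the band from general knowledge, 29 of them protein-coding, from ZNF565 at the lower end to ZNF573 at the upper end, followed by WDR87 and SIPA1L3. The gene listed as HKR1 is named ZNF875 there. Between ZNF565 and SIPA1L3, both included, the table listed 62 genes, of which 32 were protein-coding, 18 long noncoding and 12 pseudogenes. Of the zinc finger genes, 15 had a promoter entry on the minus strand and 12 had one on the plus strand. ZFP14, ZNF571 and ZNF781 were matched by name only. No region was assigned to a gene, and regions and arrays are named below by position on chromosome 19 of hg19.

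Regions were denser in the cluster than in the windows drawn for the other zinc finger clusters of chromosome 19. There were 78.4 regions per 100 kb, against 63.4 in the zinc finger window of 19q13.31, 43.0 in the windows of 19q13.41 and 19q13.43, and 21.4 in the windows of 19p12 and 19p13.2. These windows were drawn by position, and the amount of transcribed sequence in each was not measured. They also differed in size, at 1400 kb, 4500 kb and 9800 kb in that order, against 1700 kb for the cluster. The density depends on how the windows were drawn, and none was computed for the rest of the chromosome or the genome. The first member began at 36706063 and the last at 38398874. The nearest region below the window ended at 36674449, and the nearest above it began at 38495390. In 100-kb steps the number of regions ranged from 3 to 151, with a median of 76. The densest step, 37000001 to 37100000, had 146 minus-strand and 5 plus-strand regions. The sparsest steps were the uppermost one, with 3 regions, and that from 37500001 to 37600000, with 5.

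**Figure D1:**
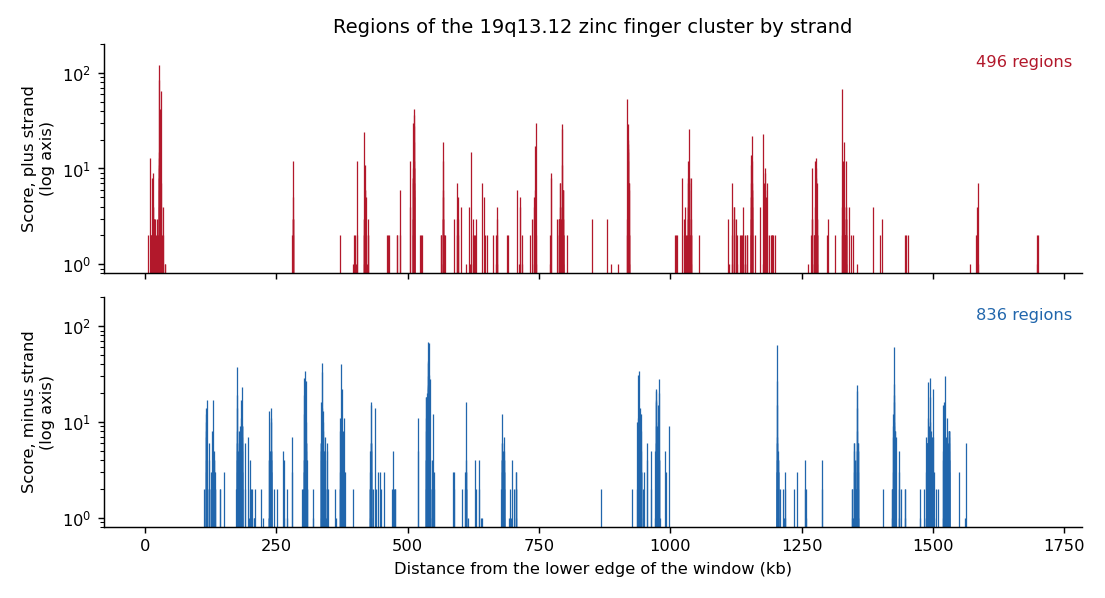
Score of each region (log axis) against distance from the lower edge of the window in kb, plus strand above and minus strand below, 1 line per region. Regions stand in narrow stacks on 1 strand or the other, with the highest score, 120, near the lower edge on the plus strand.

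The strand that held most regions changed along the cluster. Over the cluster 62.8% of regions were on the minus strand, against 48.3% of all nuclear regions. Minus-strand regions were the majority in 10 of the 17 steps of 100 kb and plus-strand regions in 6. All 64 regions from 36700001 to 36800000 were on the plus strand. All 105 regions of the next step, to 36900000, were on the minus strand. From 37700001 to 37900000 all 122 regions, 39 and 83 in the 2 steps, were again on the plus strand. Other steps were mixed, such as 37200001 to 37300000, with 53 plus-strand and 77 minus-strand regions, and 38000001 to 38100000, with 38 of each. Plus-strand regions had a median score of 3 and a median width of 32 nt, and minus-strand regions 3 and 35 nt. A larger share of the minus-strand regions lay in arrays, defined below (79.1% against 58.5%).

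The scores of the cluster had the same median as those of the nuclear genome, with a smaller share of regions at score 2 and a larger share at 3 and above. The score is a whole number from 1 to 1000, and no source used here says what it counts. The median was 3, with an interquartile range of 2 to 6, against 3 and 2 to 5 over all nuclear regions. The lowest score, 1, was given to 166 members (12.5%, with a Wilson 95% interval of 10.8 to 14.3), and to 14.1% of the nuclear regions. A score of 2 was given to 403 (30.3%, 27.8 to 32.8), and to 35.3% of the nuclear regions. Scores of 3 or more were held by 763 members (57.3%, 54.6 to 59.9), and by 50.6% of the nuclear regions. Scores of 10 or more were found in 173 members (13.0%, 11.3 to 14.9), against a background of 11.0% over all 211947 regions. The shares of the wider list at score 2, at 3 or more and at 10 or more lay outside these intervals. The intervals are too narrow to settle a difference, because neighbouring regions are not independent. They were 30.8%, 58.2% and 15.4% in the windows of 19q13.41 and 19q13.43, and 32.2%, 54.2% and 11.0% in that of 19q13.31. In those of 19p12 and 19p13.2 they were 34.3%, 52.05% and 9.41%. On the rest of chromosome 19, 12.6% had scores of 10 or more. Without the array of highest median score, described below, the cluster's share at 10 or more was 11.9%, so part of its distance from 11.0% came from 1 array. The 173 members with scores of 10 or more carried 50.1% of the summed score, near the 50.6% that such regions carried over the nuclear genome. Scores of 20 or more were found in 65 (4.88%, 3.85 to 6.17), against 4.09%. A single member, 1 of 1332, reached 100 (0.0751%, 0.0133 to 0.424), against 0.264%, which lies inside the interval, as does the 4.09%. The intervals cover counting error only.

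Members of higher score were wider. The median width of all members was 34 nt (interquartile range 27 to 45, range 18 to 216), against 32 nt (25 to 43) over nuclear regions. At score 1 it was 30 nt. Scores of 3 to 5 had a median width of 35 nt, scores of 6 to 10 one of 42 nt, scores of 11 to 20 one of 54.5 nt, and scores of 21 to 50 one of 69 nt. Over the 1332 members the rank correlation of width with score was 0.460, against 0.452 over nuclear regions. It is a description with no test, over regions of 1 pooled list.

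The 10 regions of highest score lay in 6 arrays, 5 on each strand, and together held 9.23% of the cluster's summed score. The highest, on the plus strand at 36727167 to 36727217, had a score of 120 over 51 nt. The next, at 36726807 to 36726922 on the same strand, had a score of 85 over 116 nt and lay 244 nt upstream of it, edge to edge. The widest of the 10, 216 nt at 36729462 to 36729677, had a score of 65 and belonged to the same array. A further 3 were on the minus strand within a span of 1276 nt, at 37238784 to 37238890 (score 43), 37238943 to 37239053 (score 69) and 37239985 to 37240059 (score 66). The other 4 stood in arrays of their own. They were a region of 42 nt on the plus strand at 38026717 to 38026758 (score 67), one of 62 nt on the minus strand at 37903658 to 37903719 (score 63), one of 49 nt on the minus strand at 38126215 to 38126263 (score 61) and one of 71 nt on the plus strand at 37618227 to 37618297 (score 53). In the array that began at 38026717 that 1 region held 46.2% of the summed score of 145, and in the array at 37902119 the top region held 32.5% of 194. In the array of 65 regions at 37234410 the top region, of score 69, held 9.41% of 733. Such shares depend on the number of regions, which was 15 in the array at 38026717. The median score was 4 in the arrays at 38026717 and 37234410, and 3 in that at 37902119.

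Most members lay close to another on their strand. For 898 members (67.4%, Wilson 95% interval 64.9 to 69.9) another region stood within 100 nt on the same strand, edge to edge, against 53.4% of nuclear regions. The share was 66.1% (63.9 to 68.2) in the windows of 19q13.41 and 19q13.43, 63.1% (59.8 to 66.2) in that of 19q13.31, 58.5% (56.4 to 60.6) in those of 19p12 and 19p13.2, and 56.6% (55.5 to 57.7) on the rest of chromosome 19. The cluster and its neighbours on the long arm thus had overlapping intervals. Isolated regions, more than 10000 nt from any other on their strand, numbered 11 (0.826%), against 8.32% of nuclear regions. They were also few in the windows of 19q13.31 (1.35%) and of 19q13.41 and 19q13.43 (1.60%). The share was 4.06% in those of 19p12 and 19p13.2 and 4.32% on the rest of chromosome 19. On the opposite strand, 8 members (0.601%, 0.305 to 1.18) had a region within 100 nt, against 0.796% of nuclear regions. Within 1000 nt there were 65 (4.88%, 3.85 to 6.17), near the 4.21% of nuclear regions. These 65 had a median score of 3 and no score above 24. None of them overlapped, and overlaps over the nuclear list were not counted here. The closest was at 38055597 to 38055626, a minus-strand region of score 14 that lay 7 nt from a plus-strand region of score 1.

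**Figure D2:**
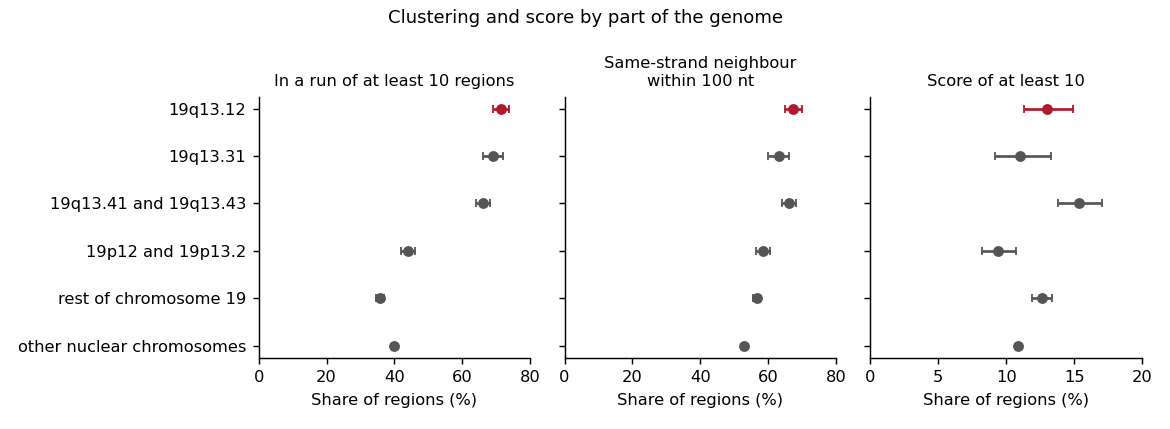
Share of regions (%) in arrays, with a same-strand neighbour within 100 nt, and with a score of at least 10, for the 19q13.12 cluster (red) and 5 other sets of regions (grey), with Wilson 95% intervals. The cluster has 71.4% of its regions in arrays, against 39.9% on the other nuclear chromosomes.

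Arrays held most of the cluster. Regions of a strand with at most 1000 nt between 1 and the next were joined into runs, and runs with 10 regions or more were called arrays. The 1332 members formed 259 runs, of which 153 were a single region and 33 were arrays. The arrays held 951 members (71.4%, Wilson 95% interval 68.9 to 73.8) and 84.4% of the summed score. The background was 40.4% of nuclear regions, with 51.7% of the score. The shares were 69.1% (66.0 to 72.1) in the window of 19q13.31 and 66.0% (63.9 to 68.1) in those of 19q13.41 and 19q13.43, but 43.9% (41.8 to 46.1) in those of 19p12 and 19p13.2. Members in arrays had a median score of 4 and a median width of 36 nt, and 16.8% of them reached a score of 10. Among the 153 single regions the median score was 2, the highest 22, and 3 reached 10.

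The 33 arrays were larger than is common in the list, by median span and median number of regions. They spanned 2015 to 11025 nt, with a median of 4002 nt against 2846 nt over the 4317 nuclear arrays, and held a median of 25 regions, against 16. Between 1 array and the next, on either strand, lay a median of 40670 nt, a distance not measured for nuclear arrays. This gap was under 10000 nt in 4 cases and over 100000 nt in 2. Plus-strand arrays numbered 13 and minus-strand arrays 20. In order along the chromosome they formed 14 blocks of 1 strand, and the longest was 8 minus-strand arrays from 36815309 to 37073321. A single array made up 7 of the 14 blocks. The number of blocks was not compared with a random order or with other parts. Regions covered between 12.4% and 64.9% of an array's span, with a median of 23.6%, against 25.8% for nuclear arrays. The arrays thus had higher median numbers and spans than nuclear arrays, at a similar cover.

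The 12 arrays with the most regions held 532 members (39.9%) and 53.5% of the summed score. On the minus strand the first was 37234410 to 37243242, with 65 regions. Their scores summed to 733 and reached 69. It ranked 41 by number of regions and 40 by summed score among the 4317 nuclear arrays. The array at 38186314 to 38197338 had 64 regions over 11025 nt, but their scores summed to 304 and reached only 29. That at 37035227 to 37042800 had 55 regions and a summed score of 321. Arrays of 50 regions each lay at 37001447 to 37009067 (summed score 353) and 37636545 to 37644465 (301). The latter was followed on the same strand by 37672336 to 37678145, with 42 regions and a summed score of 285. These 6 arrays had median scores of 3 to 4. Their regions with scores of 10 or more held 78.9% of the summed score in the array at 37234410 (22 of its 65 regions), 30.9% in that at 38186314 (5 of 64), and from 46.7% to 62.9% in the other 4.

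Further down this order, the array at 38122216 to 38127041 on the minus strand had 39 regions with scores of up to 61 and a sum of 272. The plus-strand array at 36726481 to 36730607 had 38 regions, the minus-strand array at 37378953 to 37383327 had 33 with a highest score of 12, and the plus-strand array at 37618081 to 37621217 had 33 with a highest score of 53. The last of the 12 were minus-strand arrays at 36879428 to 36885007, with 32 regions, and at 36936025 to 36940737, with 31. The array at 37902119 to 37905241 also had 31.

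The plus-strand array at 36726481 to 36730607 differed from the others in score. Its 38 regions had a median score of 9.5, whereas the other 32 arrays ranged from 2 to 7. They made up 2.85% of the members and 10.4% of the summed score of the cluster, and covered 64.9% of the array's span. Among the 4317 nuclear arrays it ranked 64 by median score and 30 by summed score. From 5′ to 3′ the scores began at 2, 2, 6, 3 and 8, then reached 85 and, 309 nt later, 120. A middle stretch of 4 regions within 319 nt (inner positions 36727961 to 36728280) that stood at 40 or 41 was broken by 1 region of score 5. Scores from 17 to 65 then alternated with scores of 1 to 9 up to 36729677, and the last 2 regions, after a gap of 633 nt, had scores of 7 and 4. In all, 19 of the 38 reached a score of 10 and 3 reached 50. The second highest median, 7, belonged to the plus-strand array at 37209962 to 37212481, with 27 regions, scores of up to 42 and 55.9% of its span covered.

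**Figure D3:**
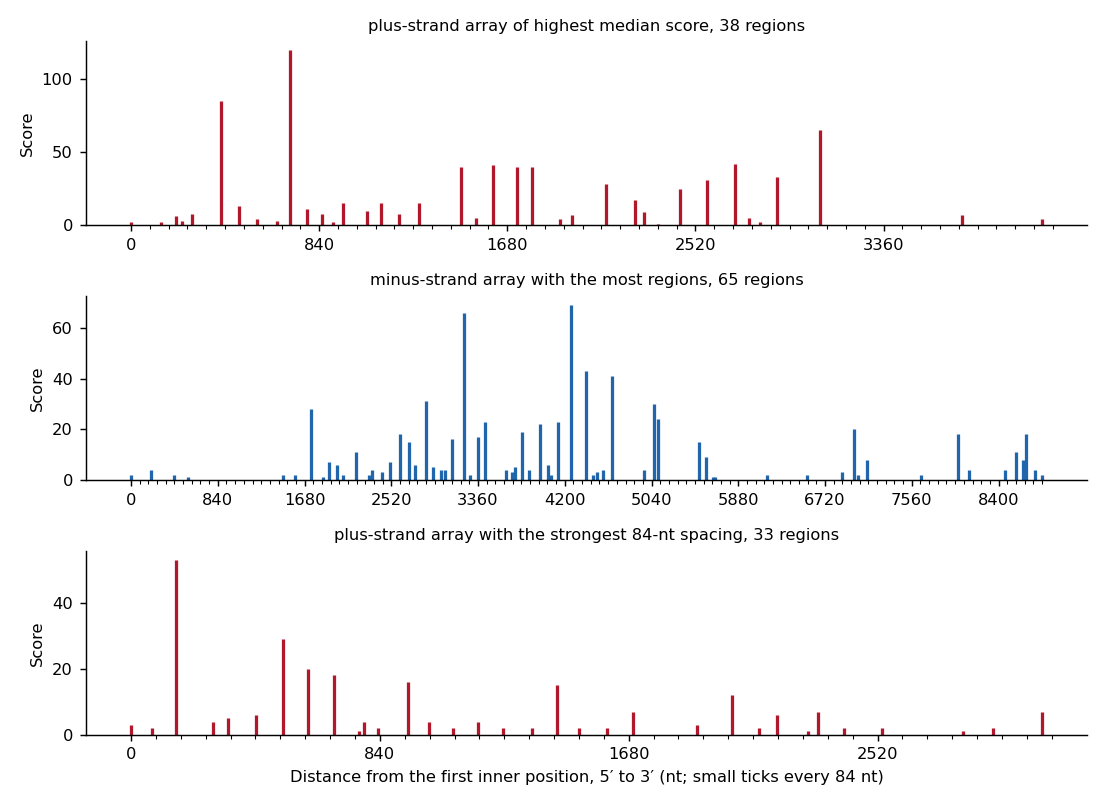
Score of each region against the distance of its inner position from the first in the array, read 5′ to 3′ in nt, for 3 arrays, with small ticks every 84 nt. The first array reaches 120, the second spreads 65 regions over 8833 nt, and in the third many lines follow each other at about 84 nt.

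Scores showed no common lean toward an end of the arrays. The 3′ side of the midpoint held a median of 51.2% of the summed score, and more than the 5′ side in 17 of the 33 arrays (51.5%), against 49.5% of the 4317 nuclear arrays. Single arrays differed widely, from 14.0% to 91.3%. In the minus-strand array at 36874096 to 36876981 the 3′ side held 91.3% of the score. In the minus-strand array at 38122216 to 38127041 it held 18.0%. Which part of a transcript each side covers was not analysed here.

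Spacing within the cluster leaned toward multiples of 1 period, 84 nt. Each region carries a 1-nt inner position. Distances between all pairs of inner positions on 1 strand that lay 0.5 to 10.5 periods apart were taken. Of the 5466 pairs, 1125 (20.6%, Wilson 95% interval 19.5 to 21.7) were within 7 nt of a multiple of 84, whereas an even spread would put 17.9% there. Within 7 nt of the midway points between multiples there were 928 pairs. On the other nuclear chromosomes, 82308 of 460491 pairs were near a multiple (17.9%) and 82365 midway. A region enters many pairs, so the pairs are not independent and the interval is too narrow.

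The share near a multiple was 1.15 times an even spread in the cluster, 1.10 in the window of 19q13.31, 1.08 in those of 19q13.41 and 19q13.43, 1.06 in those of 19p12 and 19p13.2, 1.01 on the rest of chromosome 19 and 1.00 on the other nuclear chromosomes. The difference between the cluster and the other zinc finger windows was not tested. When periods from 60 to 110 nt were tried in turn, the cluster's highest ratio was that at 84 nt. Ratios at periods more than 5 nt away from 84 ranged from 0.929 to 1.04. On the other nuclear chromosomes, ratios at such periods ranged from 0.995 to 1.01. By multiple, the share in the cluster was 23.3% at 84 nt, 24.1% at 168 nt and 21.3% at 252 nt. It was 18.4% at 336 nt and 18.5% at 420 nt, between 20.5% and 21.4% from 504 to 672 nt, 16.4% at 756 nt and 19.2% at 840 nt.

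**Figure D4:**
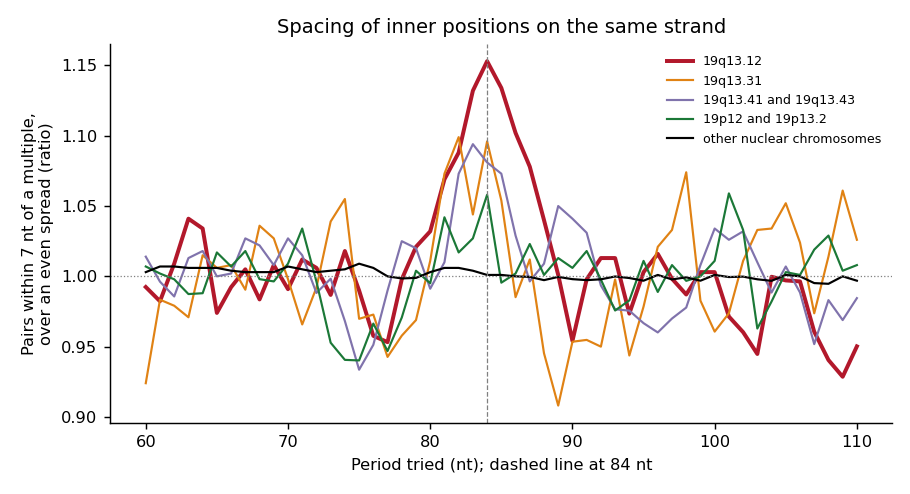
Pairs of inner positions within 7 nt of a multiple of the period tried, as a ratio to an even spread, against the period in nt, for the cluster (thick red), 3 sets of other zinc finger windows and the other nuclear chromosomes (black). The red line peaks at 1.15 at 84 nt, and the black line stays near 1.

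Neighbouring regions showed the same distance. Of the 931 gaps under 360 nt between 1 inner position and the next on the strand, 137 (14.7%, Wilson 95% interval 12.6 to 17.1) were 77 to 91 nt long, against 9.59% (9.41 to 9.77) on the other nuclear chromosomes. The share was 11.9% (10.2 to 13.7) in the windows of 19q13.41 and 19q13.43, 10.3% (8.12 to 13.0) in that of 19q13.31 and 9.22% (7.74 to 11.0) in those of 19p12 and 19p13.2. In bins of 12 nt the commonest gap in the cluster was 72 to 83 nt, with 113 gaps, and the bin of 84 to 95 nt held 82. On the other nuclear chromosomes it was 48 to 59 nt.

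**Figure D5:**
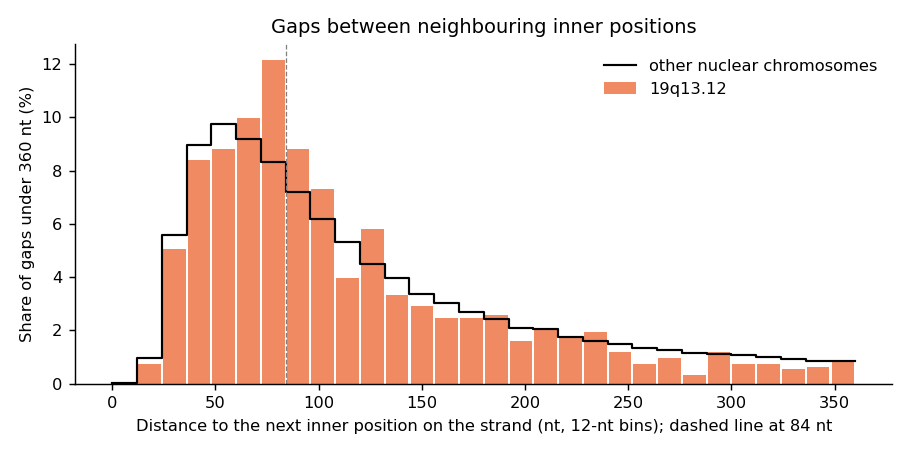
Share (%) of gaps under 360 nt between neighbouring inner positions on a strand, in bins of 12 nt, for the cluster (bars) and the other nuclear chromosomes (line). The cluster is highest at 72 to 83 nt, with 12.1% of its gaps.

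The spacing was uneven among arrays. Of the 29 arrays with at least 50 pairs, 18 (62.1%) had more pairs near a multiple of 84 nt than an even spread gives. The background was 46.9% of 2680 nuclear arrays. In the windows of 19q13.41 and 19q13.43 the share was higher, 73.5% (25 of 34 arrays). It was 57.7% (15 of 26) in those of 19p12 and 19p13.2 and 57.1% (8 of 14) in that of 19q13.31. On the rest of chromosome 19 it was 55.1%. In the cluster 11 arrays had fewer. The ratios of the cluster's 29 arrays ran from 0.549 to 1.71. The highest was the plus-strand array at 37618081 to 37621217, where 79 of 259 pairs (30.5%) were near a multiple and 32 (12.4%) midway. There, 12 of the 32 gaps between neighbours were 77 to 91 nt long. In one stretch of it, the inner positions 37618606, 37618691, 37618777 and 37618862 followed each other at 85, 86 and 85 nt, with scores of 29, 20, 18 and 1. Further along, 37619099, 37619180, 37619264 and 37619347 were 81, 84 and 83 nt apart, with scores of 4, 2, 4 and 2. The regular places of this array thus held regions of both higher and lower score. Its share of gaps of 77 to 91 nt, 37.5%, was the highest of any array in the cluster. In the arrays at 37491879 and 38219557, 0 of 24 gaps each had that length.

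Other arrays with high ratios lay on both strands. The plus-strand array at 37732697 to 37736698 had 29 of 97 pairs near a multiple and 12 midway, and the minus-strand array at 36874096 to 36876981 had 29 of 104 and 16. The array with the most regions, at 37234410, had 99 of 439 pairs near a multiple (22.6%) and 58 midway. The array of highest median score, at 36726481, had 73 of 298 (24.5%) and 61 (20.5%). Arrays below an even spread included the large minus-strand arrays at 37001447 and 37035227, with 54 of 328 pairs (16.5%) and 57 of 323 (17.6%). Without the array at 37618081, the share over the cluster was 20.1%, the lowest value when each of the 29 arrays was left out in turn.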

How the data were processed

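Regions came from 1 list, in a series of 3 AGO1 libraries and 1 AGO2 library. Its score, start, end and inner position are values as deposited by the authors (other units: genomic coordinates). Per the file headers, regions lie on hg19, form the set AGO_good and passed a filter named with 0.05. Per the submitters' processing notes, BWA 0.5.8c was used. The region caller, the treatment of reads that match several paralogous genes, and which libraries were pooled are not stated in any source used here. Depth per library is unknown.

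Coordinates were printed counting from 1. Members, gene list, windows and tests were chosen with earlier results of these data known. Named arrays were the 12 with most regions, and named regions the 10 of highest score. Others were picked after their values were seen. Planned analyses by gene part and microRNA seed match need the hg19 annotation and sequence, and were not run. Functions were tested on 1800 simulated regions, where 6 of 6 measures came back as simulated. The work was done in Python 3.11.15 with pandas 2.3.3 and numpy 2.4.6. Intervals used scipy 1.17.1, and plots matplotlib 3.10.9.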

Additional observations from a re-analysis of the deposited data

How the results depend on the processing

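Of 52 values under other settings, 37 stayed within the 95% interval of the reported value, or within 1.5 times for a count. The other 15 moved further. By the rule used, only the ratios to an even spread could turn direction, and none fell below 1. Of the 52 values, 18 came from settings added after the data were seen. With scores of at least 3 alone, there were 763 regions, 22.7% had a score of at least 10, the median width was 39 nt, 67.4% lay in arrays, and 22.1% of pairs were near a multiple of 84 nt, 1.24 times an even spread. That ratio was 1.22 within 4 nt, 1.08 within 12 nt and, on the plus strand alone, 1.23 (22.0% of pairs). It was 1.12 on the minus strand alone (19.9% of pairs) and 1.11 for scores of at most 5. The share in arrays was 59.5% with run gaps up to 500 nt and 77.5% with gaps up to 2000 nt. Same-strand neighbours within 100 nt made up 58.0% by inner positions. With regions at most 10 nt apart joined, they made up 61.4%, and 67.7% lay in arrays. Nuclear backgrounds under these settings were not computed, so these shares cannot be set against the backgrounds given above. Another seed length and another order of gene parts, 2 in all, were not run. No paired analysis was possible because no value belongs to a single library.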
